A study of Mus musculus with 33 samples.

Results

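The genes described here are 9 checkpoint and regulatory genes of T cells, Pdcd1, Ctla4, Lag3, Tigit, Havcr2, Tnfrsf4, Tnfrsf9, Tox and Foxp3. They were chosen by name, as 9 of the 32285 genes measured, and were read in cells with at least 1 unique molecular identifier (UMI, the tag that marks a captured RNA molecule) of Cd3e, Cd3d or Ncr1. This gate held 10479 of 55366 kept cells of the intracardiac experiment and 2717 of 22362 kept cells of the IIA experiment. The intracardiac cells came from mouse bone (femurs and tibias), brain, liver and lung, with 4 biotin positive and 4 biotin negative samples per tissue. The IIA cells came from bone after the injection that the labels call iia, with 6 biotin positive and 6 biotin negative samples that carried hashtags and were pooled in 1 matrix. All tissues were taken after overnight labelling with the substrate of SAMENT, a niche-labelling system, and were dissociated with collagenase before the sort by biotin. The sources used here give neither strain, age, genotype nor the injected cells. The labels do not say that samples came from separate animals, so p-values measure the spread between these samples, which may be technical. The intracardiac libraries were 3′ and the IIA libraries 5′, and no level was compared between them.

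Pdcd1, Ctla4, Lag3, Tigit and Havcr2 encode inhibitory receptors that restrain lymphocytes after activation. Tnfrsf4 and Tnfrsf9 encode costimulatory receptors of the tumour necrosis factor receptor family, which activated lymphocytes put on their surface. Tox encodes a nuclear protein known for its part in the exhausted state of CD8+ T cells, and Foxp3 encodes the transcription factor that defines regulatory T cells, a CD4+ population that carries Ctla4 in abundance. Several of these genes are not restricted to T cells: NK cells can carry Tnfrsf9, Tigit and Lag3, and macrophages and dendritic cells carry Havcr2.

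Most UMIs of the 9 genes lay in part of the gated cells, those with few neutrophil transcripts. Of the gated cells, 4070 intracardiac cells and 1850 IIA cells held at least 20% of their UMIs in 10 neutrophil genes such as S100a8 and Ngp. Cd3d was the gate's only transcript in 96.9% of these intracardiac cells, and a second T cell transcript was present in 4.28% of them. In the 5763 intracardiac cells with under 1% neutrophil transcripts, a second T cell transcript was present in 92.0%. Levels are given in CPM, the UMIs of a gene in the summed cells per 1e6 UMIs of all genes in the same cells. Ctla4 reached 83.8 CPM in the 5763 cells and 1.02 in the granulocyte-rich cells, and Tox reached 82.9 and 0.645. Among all 16941 granulocyte-rich intracardiac cells a Cd3d UMI was found in 23.7% and a Cd3e UMI in 0.596%. So each result is given for all gated cells and for low-granulocyte cells, which are the 5904 intracardiac and 737 IIA gated cells with under 2% neutrophil transcripts. They held 2218 of the 2316 Ctla4 UMIs of gated intracardiac cells, 2179 of 2259 for Tox and 385 of 479 for Havcr2, and in IIA cells 49 of 75 for Tnfrsf4. That limit was set after the data had been seen.

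**Figure D1:**
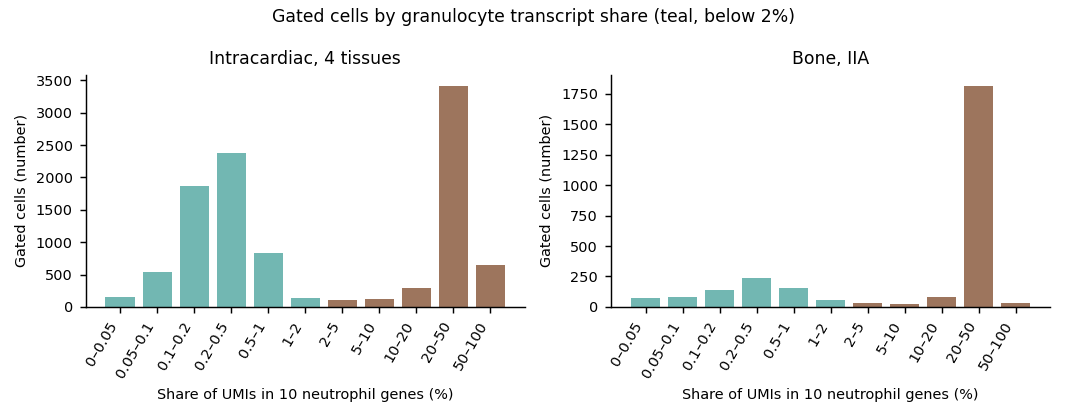
Number of gated cells (vertical axis) by the share of their UMIs in 10 neutrophil genes (horizontal axis, percent) in the intracardiac and the IIA experiment. Teal bars are the low-granulocyte cells below 2%, and brown bars are the other gated cells, with a separate mass at 20% and above.

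All 9 genes were found in a larger share of low-granulocyte cells than of B cells, which should lack most of them. A Ctla4 UMI was found in 15.6% of the 5904 intracardiac cells (median 3293.5 UMIs a cell) and in 2.38% of 6302 B cells (median 2453). A Tnfrsf4 UMI was found in 9.08% and 0.698%, a Pdcd1 UMI in 7.01% and 0.317%, a Tox UMI in 23.9% and 0.428%, and a Foxp3 UMI in 2.78% and 0.0635%. With every cell thinned to 2000 UMIs the Ctla4 shares were 10.7% and 1.69%. Havcr2 was at 4.49% against 2.22%, and it was found in 23.6% of 14579 mononuclear phagocytes. The genes also shared cells: 3247 of the 5904 cells had no UMI of any of the 9, 1613 had a UMI of 1 gene, and no cell had all 9. Of the 414 cells with a Pdcd1 UMI, 51.2% also had a Tox UMI and 43.7% a Ctla4 UMI.

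Ctla4 and Tnfrsf4 had their highest group mean in biotin negative lung, followed for Ctla4 by biotin positive lung (108 ± 118, SD, n = 4) and for Tnfrsf4 by biotin positive brain (88.4 ± 79.6). All 31 Tnfrsf4 UMIs of biotin positive brain sample 2 lay in 3 cells, and all 26 of sample 4 lay in 4 cells. In low-granulocyte cells Ctla4 measured 74.4, 172, 213 and 209 CPM in biotin negative lung samples 1 to 4, against 17.5, 37.6, 24.7 and 20.0 in biotin negative bone. The lung and bone values did not overlap. Separations of this kind, here and below, are descriptions, since the share of all genes with such a separation is not given. None of the 8 genes tested passed in the edgeR fit of lung against the other tissues in these cells. Biotin negative brain gave 33.9, 135, 105 and 117 for Ctla4, and biotin negative liver gave 18.6, 127, 53.9 and 60.5, so both overlapped with lung. By mean the order of the biotin negative tissues was lung (167 ± 64.4, SD, n = 4), brain (97.8 ± 44.3), liver (64.9 ± 45.1) and bone (24.9 ± 8.92), and each neighbouring pair overlapped. Tnfrsf4 measured 70.6, 90.2, 128 and 162 CPM in biotin negative lung and 20.6, 13, 40.5 and 30.9 in biotin negative bone, again without overlap. Its biotin negative liver samples, at 8.8, 31.0, 26.9 and 8.6, also lay below all 4 lung samples.

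Among the other inhibitory receptors, Pdcd1 was higher in each biotin negative lung sample than in every biotin negative bone sample, and Lag3, Tigit and Havcr2 overlapped between those groups. Pdcd1 in low-granulocyte cells measured 31.7, 15.3, 60.7 and 67.4 CPM in biotin negative lung and between 10.9 and 11.6 in the 4 biotin negative bone samples. Lag3 spread from 5.6 to 100.02 within biotin negative lung, a range that overlapped with every other group. Tigit was at 24.6 CPM or less in every intracardiac sample. Havcr2 had its 2 highest group means in biotin positive lung (39.0 ± 22.2, n = 4) and biotin positive liver (29.1 ± 18.3, n = 3), while biotin negative lung was at 12.6 ± 4.36 and biotin negative liver at 11.4 ± 4.36. Tnfrsf9 was at 36.9 ± 9.85 in biotin negative lung and 14.5 ± 7.40 in biotin negative bone. It was higher in biotin positive than in biotin negative lung in 2 of 4 pairs. In biotin positive lung, 70 of 82 Tnfrsf9 UMIs of sample 1 lay in 5 cells, and all 26 of sample 4 lay in 4 cells. Tox ranged from 39.0 to 181 over all 16 biotin negative samples, with overlap among all 4 tissues. Foxp3 reached 25.8 at most in biotin negative samples and was at 0 in biotin negative liver sample 4 and in 6 of the 15 biotin positive samples with at least 10 low-granulocyte cells. Biotin positive liver sample 4 held 1 low-granulocyte cell and is left out of levels and fits.

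**Figure D2:**
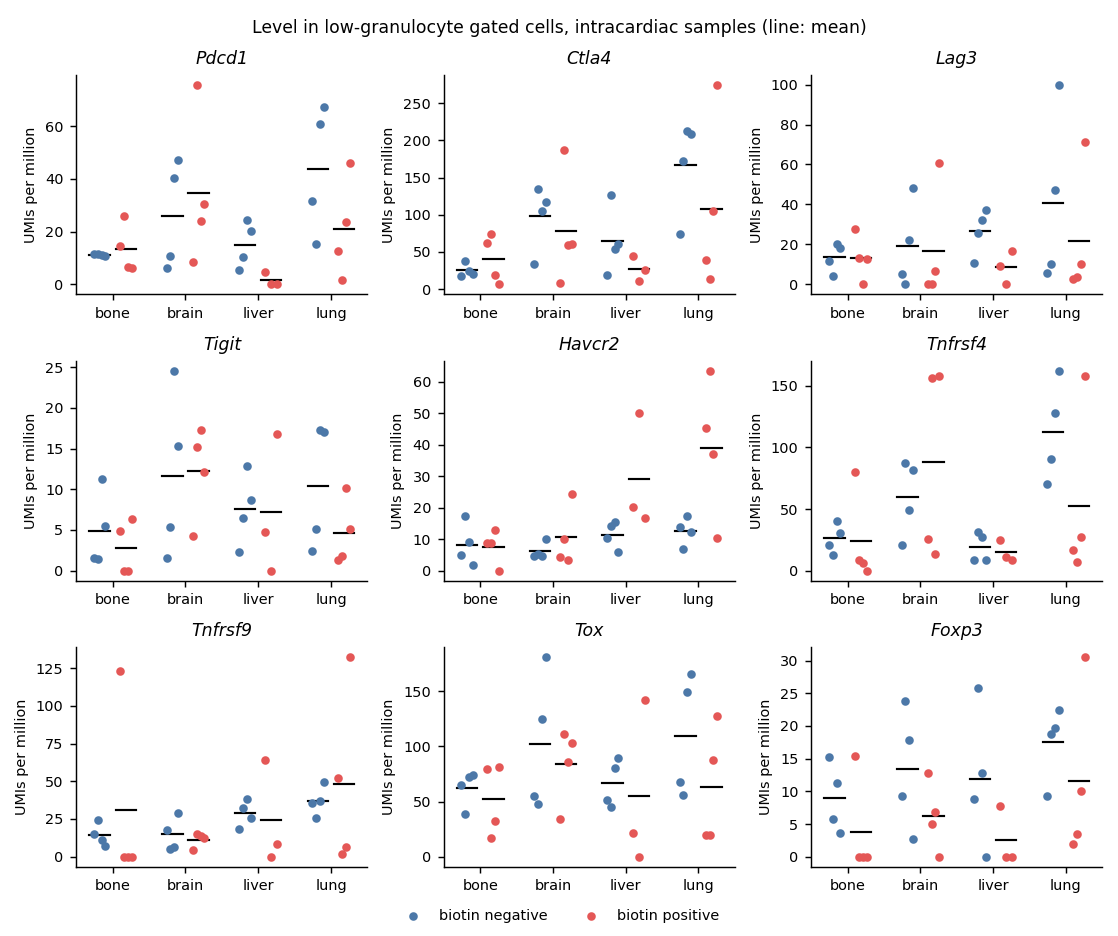
CPM (vertical axis) of each of the 9 genes in low-granulocyte gated cells, by tissue and biotin sort in the intracardiac experiment. Each point is a sample and the line is the group mean. Biotin negative lung lies above biotin negative bone for Ctla4 and Tnfrsf4, and Havcr2 is highest in biotin positive lung and liver.

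Ctla4 and Tnfrsf4 were higher in CD4+ than in CD8+ cells and lowest in NK cells, and Foxp3 followed the same order. Cells were sorted by transcripts that are not among the 9 genes: a CD4 gate (Cd3d or Cd3e with Cd4, no Cd8a, Cd8b1 or Ncr1), a CD8 gate (Cd3d or Cd3e with Cd8a or Cd8b1, no Cd4 or Ncr1) and an NK gate (Ncr1 without Cd3d, Cd3e or Cd3g). Over low-granulocyte cells they held 945, 1280 and 875 intracardiac cells. The median over samples with at least 10 such cells (21, 23 and 13 samples) was 193 CPM for Ctla4 in the CD4 gate, 31.9 in the CD8 gate and 7.0 in the NK gate. For Tnfrsf4 the medians were 110, 2.3 and 0. For Tnfrsf9 they were 30.6, 4.4 and 43.6, and for Tox 78.3, 74.5 and 50.02. Pooled over samples, Foxp3 was at 34.9 in the CD4 gate and 1.95 in the CD8 gate, and no Foxp3 UMI was found in 875 NK gate cells, which allows a share of cells with a UMI of up to 0.343%. Pdcd1 was at 43.4, 33.4 and 1.95 in the 3 gates, Lag3 at 53.8, 31.3 and 14.2, Tigit at 11.7, 7.62 and 7.53, and Havcr2 at 15.05, 18.3 and 7.80.

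**Figure D3:**
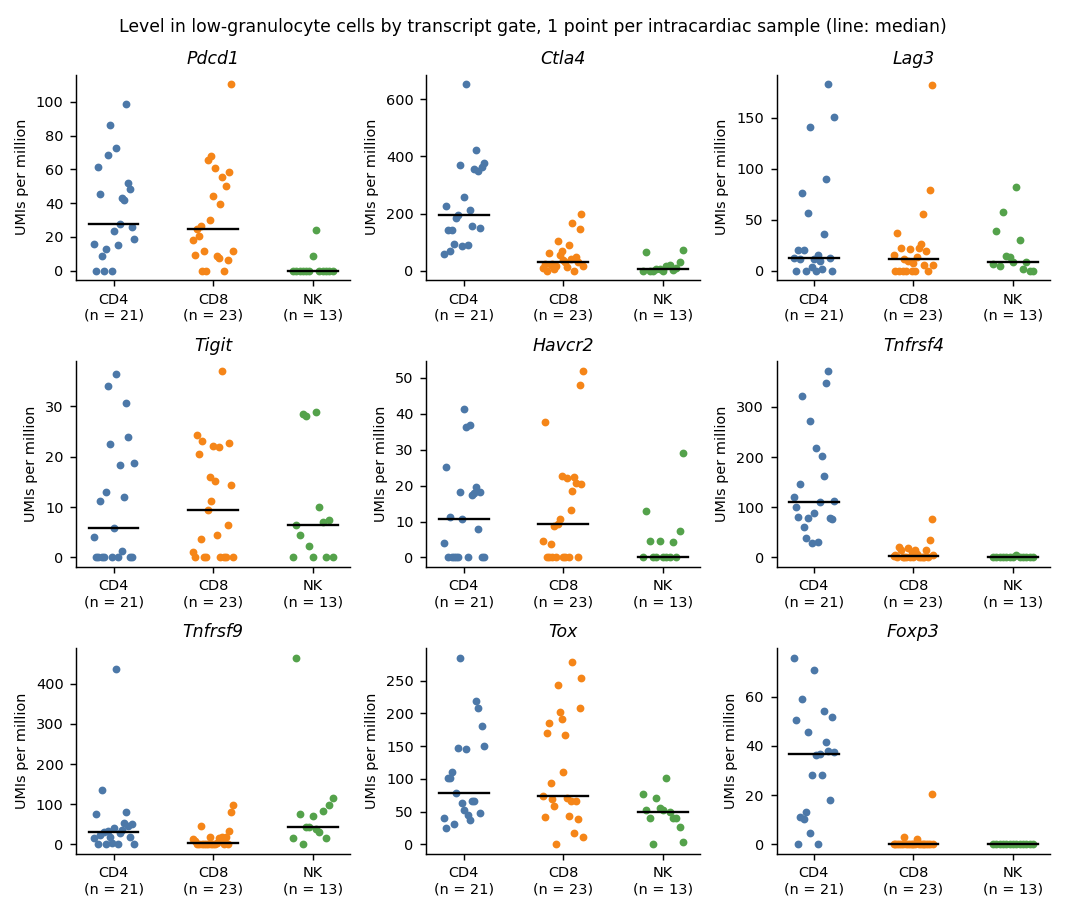
CPM (vertical axis) of each of the 9 genes in the CD4, CD8 and NK gates of low-granulocyte intracardiac cells. Each point is a sample with at least 10 cells in that gate, and the line is the median. Ctla4, Tnfrsf4 and Foxp3 are highest in the CD4 gate, and Tnfrsf9 is higher in the NK gate than in the CD8 gate.

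The gates were compared within samples over all gated cells (20 samples, 55 sums, edgeR's quasi-likelihood test with sample as a block, Benjamini-Hochberg adjustment over 3106 genes). Of the 9 genes, Ctla4, Tnfrsf4 and Tox passed the filter on low counts. Ctla4 was lower in the CD8 gate than in the CD4 gate, with a log2 difference of -2.05 ± 0.29 (SE, adjusted p = 1.57e-06). Tnfrsf4 was lower by more, at -3.67 ± 0.24 (adjusted p = 6.59e-16), while Tox gave 0.15 ± 0.22 (adjusted p = 0.807). In this comparison 9.63% of genes passed. In the NK gate against the CD8 gate Ctla4 fell by 1.75 on the log2 scale (SE 0.46, adjusted p = 0.00326), Tnfrsf4 fell by 4.01 (SE 0.66, adjusted p = 6.39e-06) and Tox fell by 1.25 (SE 0.27, adjusted p = 0.000353), where 25.5% of genes passed. Tnfrsf4 and Ctla4 cleared the filter through their counts in the CD4 gate, so their filtered values are a description. The fit without the filter, over all genes with a UMI, does not depend on that choice. It gave -3.69 ± 0.22 for Tnfrsf4 (adjusted p = 5.18e-62 by edgeR) and -2.04 ± 0.16 for Ctla4 (adjusted p = 6.84e-34) in the CD8 gate against the CD4 gate. Foxp3 also passed there (-3.82 ± 0.37), where 3.53% of genes passed. In the NK gate against the CD8 gate that fit gave -4.01 ± 0.57 for Tnfrsf4 (adjusted p = 1.94e-10 by edgeR), and 8 of the 9 genes passed, all but Tnfrsf9 lower in the NK gate, where 7.61% of genes passed. Tnfrsf9 was then 1.41 ± 0.22 higher in the NK gate than in the CD8 gate (adjusted p = 1.1e-08). With the filter, low-granulocyte cells gave the same calls, with 14% and 28.3% of genes passing.

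Other receptors separated the same gates. In low-granulocyte cells 14% of all genes passed between the CD8 and CD4 gates. Of 9 other costimulatory receptor genes, 7 were tested there and 4 were lower in the CD8 gate, among them Cd40lg, the CD40 ligand (-4.90 ± 0.30), Icos (-2.01 ± 0.20) and Tnfrsf18 (-1.08 ± 0.16). Which gate carried them past the filter on low counts is not given here. The list's median was -0.89, and the median of all genes was -0.00. Of 11 other inhibitory receptor genes, 5 were tested, with Cd160 (2.56 ± 0.40) and Klrc1 (2.25 ± 0.42) higher in the CD8 gate and Cd5 lower (-1.15 ± 0.17). In the NK gate, 6 of 8 naive and memory genes were lower than in the CD8 gate, where 28.3% of all genes passed. Those with the lowest adjusted p-values were Ccr7, a homing receptor for lymph nodes (-4.80 ± 0.43), and Tcf7, a transcription factor of naive and stem-like T cells (-2.30 ± 0.22).

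Cells with a Foxp3 UMI carried more Ctla4, Tnfrsf4 and Tnfrsf9 than other CD4 gate cells of the same samples. Biotin negative lung samples 1 and 3 held at least 10 CD4 gate cells with a Foxp3 UMI. In low-granulocyte cells of lung sample 1, Ctla4 was at 853 CPM in 11 cells with a Foxp3 UMI and at 69.6 in 169 without. In lung sample 3 it was at 908 in 12 cells and at 370 in 129. Tnfrsf4 was at 637 and 147 in sample 1 and at 1263 and 246 in sample 3. Tnfrsf9 was at 228 and 10.6 in sample 1 and at 399 and 46.3 in sample 3. Each of the 3 receptors was higher with a Foxp3 UMI in both samples.

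In the fit over these samples, all gated cells gave 1 of 7 tested genes past the threshold, Tnfrsf9, at a log2 difference of 3.46 ± 0.48 (adjusted p = 0.0208 by edgeR's quasi-likelihood test), where 0.194% of 3607 genes passed. Tnfrsf9 cleared the filter through the cells with a Foxp3 UMI, so that value is a description. Without the filter it was at 3.24 ± 0.52 (adjusted p = 1.75e-06 by edgeR), with Ctla4 (2.01 ± 0.42, adjusted p = 0.000945) and Tnfrsf4 (1.81 ± 0.40, adjusted p = 0.00289) also past the threshold, where 0.341% of genes passed. With the filter Tnfrsf4 was at 2.03 ± 0.37 (adjusted p = 0.0505) and Ctla4 at 2.23 ± 0.50 (adjusted p = 0.131). In low-granulocyte cells Tnfrsf9 (3.41 ± 0.50, adjusted p = 7.59e-06), Ctla4 (2.18 ± 0.43, adjusted p = 0.00105) and Tnfrsf4 (1.99 ± 0.39, adjusted p = 0.00105) all passed by the same test, where 1.25% of genes passed. Tnfrsf9 again cleared the filter through the cells with a Foxp3 UMI, so its value is a description. DESeq2 called 2 of the 3 receptors, without Ctla4 (adjusted p = 0.0763), and with RLE scaling edgeR lost Ctla4 (adjusted p = 0.134) and Tnfrsf4 (adjusted p = 0.0641). Pdcd1 (0.54 ± 0.62), Lag3 (-0.48 ± 1.03), Havcr2 (1.67 ± 0.72) and Tox (-0.32 ± 0.52) did not pass. With at least 3 Foxp3 cells per sample, 8 samples could be used in low-granulocyte cells: Ctla4 was higher with a Foxp3 UMI in 8 of 8, Tnfrsf4 in 8 of 8, Tnfrsf9 in 7 of 8 and Pdcd1 in 3 of 8. The fit over 10 samples of all gated cells passed Ctla4 (2.40, adjusted p = 0.000362) and Tnfrsf4 (2.60, adjusted p = 1.61e-05), also by edgeR, where 7.49% of genes passed. The fit over 8 samples of low-granulocyte cells also passed 2 genes, where 5.34% of genes passed. Tnfrsf9 did not pass the filter on low counts there. The genes that passed in these 2 fits cleared the filter largely through the cells with a Foxp3 UMI, so their values are a description.

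Genes of the regulatory T cell list passed in the same split, where 1.25% of all genes did. Of 10 listed genes, 5 were tested in low-granulocyte cells and 4 were higher in cells with a Foxp3 UMI, among them Ikzf2, the transcription factor Helios (2.71 ± 0.41), Itgae, the integrin CD103 (4.30 ± 0.75), and Il2ra, the interleukin 2 receptor alpha chain (2.63 ± 0.63). The list's median was 2.71 and that of all genes -0.08. Which cells carried the listed genes past the filter on low counts is not given here, so these counts are a description. Tcf7 (-3.77 ± 0.63) and Klf2 (-1.85 ± 0.45), genes of naive T cells, were lower, as 2 of 8 in their list. In all gated cells Ikzf2 was the 1 regulatory gene and Tcf7 the 1 naive gene that passed, where 0.194% of genes did.

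Shares of single cells, pooled over tissues and samples, were also higher with a Foxp3 UMI for Ctla4, Tnfrsf4 and Tnfrsf9, which was not tested within each tissue. The cells compared here include CD8 cells, unlike the CD4 gate cells of the fit. Among low-granulocyte intracardiac cells with Cd3d or Cd3e, a Ctla4 UMI was found in 122 of 164 cells with a Foxp3 UMI (74.4%, exact 95% interval 67.0 to 80.9) and in 778 of 4803 without (16.2%). For Tnfrsf4 the shares were 67.7% and 8.83%, for Tnfrsf9 32.3% and 3.73%, for Tox 42.1% and 24.7%, and for Pdcd1 17.1% and 7.87%, although neither Tox nor Pdcd1 passed in the fit within samples. Within the CD4 gate the Ctla4 shares were 57 of 70 cells and 273 of 875. Median UMI counts with and without a Foxp3 UMI were 3947.5 and 3266 in the CD4 gate. They were alike over all cells with Cd3d or Cd3e (3241.5 and 3391), to which the next values belong. Thinned to 2000 UMIs a cell, which left 123 and 4245 cells, the shares were 70.7% and 10.7% for Ctla4, 55.3% and 6.05% for Tnfrsf4 and 24.4% and 2.002% for Tnfrsf9. In the IIA cells a Ctla4 UMI was found in 12 of 25 cells with a Foxp3 UMI and in 39 of 609 without. The intervals cover counting error only, since the cells of a sample share a library.

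**Figure D4:**
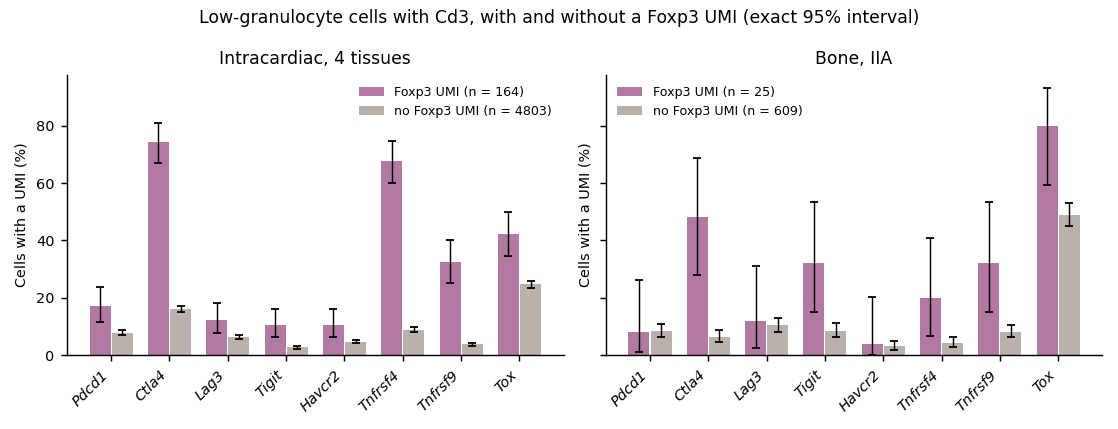
Share of low-granulocyte cells with Cd3d or Cd3e (percent, vertical axis) that have a UMI of each gene, split by a Foxp3 UMI, in the intracardiac and IIA experiments. Bars are shares pooled over samples and lines are exact 95% intervals. Ctla4, Tnfrsf4 and Tnfrsf9 differ most in the intracardiac cells, at 74.4%, 67.7% and 32.3% with a Foxp3 UMI.

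Upstream sequences are shown for Foxp3, whose UMI defines the split, and for Ctla4 and Tnfrsf9 as examples of the receptors that were higher in those cells. Tnfrsf4 is not shown. Each is the 250 bases before the RefSeq start of its gene on the plus strand (GRCm38.p6, the build named mm10 in the submitters' processing notes), taken for Ctla4 from chr1:60908775-60909024, for Tnfrsf9 from chr4:150919905-150920154 and for Foxp3 from chrX:7579426-7579675. Tnfrsf9 and Foxp3 have a further start downstream, and the first is shown. Capitals mark GGAAA and its reverse complement TTTCC, the core letters bound by NFAT, a factor activated by T cell receptor signals.
Ctla4: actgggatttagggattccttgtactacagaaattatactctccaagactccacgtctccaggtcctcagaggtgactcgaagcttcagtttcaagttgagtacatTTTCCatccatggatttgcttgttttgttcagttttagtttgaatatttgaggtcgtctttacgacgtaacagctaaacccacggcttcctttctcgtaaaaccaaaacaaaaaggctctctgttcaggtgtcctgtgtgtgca
Tnfrsf9: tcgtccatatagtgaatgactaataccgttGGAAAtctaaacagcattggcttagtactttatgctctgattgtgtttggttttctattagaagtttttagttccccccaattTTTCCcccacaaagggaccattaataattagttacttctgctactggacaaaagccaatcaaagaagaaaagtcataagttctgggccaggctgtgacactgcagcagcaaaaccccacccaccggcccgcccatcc
Foxp3: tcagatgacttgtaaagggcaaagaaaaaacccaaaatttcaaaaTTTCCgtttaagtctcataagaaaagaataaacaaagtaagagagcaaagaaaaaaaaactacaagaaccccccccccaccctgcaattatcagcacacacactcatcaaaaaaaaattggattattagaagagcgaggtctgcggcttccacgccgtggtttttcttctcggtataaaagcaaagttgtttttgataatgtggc
The Tnfrsf9 window holds 2 matches and the other windows 1 each. Over all 32851 RefSeq windows of 250 bases, 55.6% hold at least 1 match on either strand, so a match is common and is given as a description.

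In biotin negative samples, Pdcd1, Ctla4 and Tnfrsf4 were higher in gated cells of lung than in the mean of the other 3 tissues. Ctla4 in all gated cells was at 60.3, 132, 208 and 141 CPM in lung and at 9.1, 10.8, 8.5 and 0.8 in bone. Lung overlapped with brain for Ctla4, as lung sample 1 lay below brain sample 3, which held 49 Ctla4 UMIs. Tnfrsf4 was at 57.3, 62.6, 125 and 108 in lung and at 42.3 or less in every other biotin negative sample, so lung did not overlap with any of them. Pdcd1 was at 26.8, 10.6, 60.6 and 45.7 in lung, within reach of brain sample 3 at 35.0. Against the mean of the other 3 tissues the log2 difference was 2.61 ± 0.56 for Tnfrsf4 (SE, adjusted p = 0.0285), 2.38 ± 0.62 for Ctla4 (adjusted p = 0.037) and 2.30 ± 0.59 for Pdcd1 (adjusted p = 0.0361) by edgeR's quasi-likelihood test. These were 3 of the 9 genes, where 3.88% of 10135 genes passed. The other 6 did not pass and were also positive: Lag3 at 2.03 ± 0.66, Tnfrsf9 at 1.89 ± 0.68, Tigit at 1.40 ± 0.69, Tox at 1.37 ± 0.55, Foxp3 at 1.205 ± 0.68 and Havcr2 at 1.13 ± 0.46. The median of the 9 was 1.89 and that of all genes 0.04.

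With the replicate number as a block, 7 genes passed, adding Tigit (1.42, adjusted p = 0.0329), Tox (1.37, adjusted p = 0.0418), Tnfrsf9 (1.93, adjusted p = 0.0413) and Havcr2 (1.19, adjusted p = 0.0428), where 17.9% of genes passed by edgeR. Granulocyte transcripts moved with this result: the 10 neutrophil genes took 1.01% to 11.3% of UMIs in gated cells of biotin negative lung and 18.7% to 41.0% in bone. In low-granulocyte cells no gene passed by edgeR (Tnfrsf4 1.93 ± 0.53, adjusted p = 0.206; Ctla4 1.67 ± 0.49, adjusted p = 0.269; Pdcd1 1.51 ± 0.43, adjusted p = 0.255), where 0.0355% of genes passed, while DESeq2 called 0, and 3 of the 8 tested were at an unadjusted p under 0.05. All 8 differences were positive, with a median of 1.07. Cell makeup also differed, with 505 of 2395 low-granulocyte cells of biotin negative lung in the CD4 gate against 129 of 967 in liver, 128 of 871 in brain and 85 of 812 in bone. Within the CD4 gate Ctla4 was at 157, 355, 424 and 350 CPM in lung, with bone at 59.9, 228, 143 and 67.8, brain at 91.7, 183, 193 and 371, and liver at 84.7, 259, 654 and 90.3, so lung overlapped with every tissue there. In summed cells, fewer cells of a type and less RNA per cell cannot be told apart. The calls also moved with single samples: leaving out each of the 31 samples in turn gave 0 to 4 genes, and each of the 4 lung samples, when left out, brought the count to 0. Without lung sample 3 the values were 2.49 (adjusted p = 0.104) for Tnfrsf4, 2.20 (adjusted p = 0.133) for Ctla4 and 2.04 (adjusted p = 0.141) for Pdcd1. Brain samples 1 and 4 and liver sample 1 also brought the count to 0, and bone samples 2 and 4 and liver sample 4 brought it to 1.

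Other receptors of activated T cells passed in the same comparison of all gated cells, where 3.88% of all genes did. Of 8 costimulatory genes tested, 4 were higher in lung, with the lowest adjusted p-values for Icos (2.40 ± 0.57), Tnfrsf1b (1.02 ± 0.25) and Tnfrsf25 (1.77 ± 0.46). Of 14 activation and exhaustion transcription factors, 4 were higher, among them Batf (1.34 ± 0.23), Irf4 (1.98 ± 0.45) and Tox2, a relative of Tox (2.61 ± 0.68). Klrg1, an inhibitory receptor of effector cells, was higher (2.07 ± 0.60), as 1 of 11 in its list, as was Slamf6 (1.43 ± 0.39), as 1 of 8 naive and memory genes. None of these passed in low-granulocyte cells.

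In bone all 9 genes had negative differences, and none passed the threshold. All 9 differences for biotin negative bone were negative in gated cells, with a median of -1.84. Ctla4 was at -2.86 ± 0.83 (adjusted p = 0.0682 by edgeR), 0 of 9 genes passed, 1.54% of all genes passed, and 6 of the 9 had an unadjusted p under 0.05. DESeq2 called Ctla4 (-2.83, adjusted p = 0.0123), and the fit with the replicate block called Ctla4 (-2.70, adjusted p = 0.0168) and Tigit (-2.21, adjusted p = 0.0154), where 12.4% of genes passed. In low-granulocyte cells Ctla4 was at -2.08 ± 0.64 (adjusted p = 0.191 by edgeR), and 0% of genes passed. These values share the samples of the lung comparison. For brain and liver 0 of 9 genes passed by edgeR and 0 by DESeq2, with 1 gene each, Havcr2, at an unadjusted p under 0.05, where 0.00987% and 0.0197% of genes passed. Low-granulocyte cells gave 0 of 8 for both by edgeR and 0 by DESeq2, with 0 genes for brain and 1 for liver at an unadjusted p under 0.05, where 0.0118% and 0.0591% of genes passed.

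In lung, Havcr2 was higher in biotin positive than in biotin negative low-granulocyte cells, and most of the other genes had negative differences that did not pass. Havcr2 measured 45.4, 63.6, 37.0 and 10.2 CPM in biotin positive samples 1 to 4 and 13.9, 6.8, 17.3 and 12.4 in the negative samples of the same numbers. It was higher in 3 of 4 pairs, with sample 4 the exception. The log2 difference was 1.53 ± 0.43 (adjusted p = 0.017 by edgeR), the only call among 8 genes tested, where 13.1% of 8454 genes passed and 9.94% passed as higher, so 1 of 8 is near the share of all genes. In all gated cells it was 1.62 ± 0.56 (adjusted p = 0.0901 by edgeR), and 0 of the 9 genes passed, with 2 at an unadjusted p under 0.05 and 0 called by DESeq2, where 5.62% of 10135 genes passed.

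Transcripts of mononuclear phagocytes moved with Havcr2. Summed over 8 phagocyte markers, biotin positive lung samples 1 to 4 held 4873, 8006, 5589 and 316 CPM, and biotin negative samples held 807, 887, 2541 and 805. Csf1r, C1qa or Adgre1 UMIs were present in 131 of 322 low-granulocyte cells of biotin positive lung and in 168 of 2395 of biotin negative lung, and these cells held 91 of 120 and 35 of 118 Havcr2 UMIs. With cells carrying transcripts of other lineages left out, Havcr2 was at 32.3, 37.3, 35.7 and 11.7 in biotin positive samples, from 81, 13, 40 and 47 cells and 19, 3, 5 and 2 UMIs, and at 8.7, 2.3, 18.4 and 11.2 in negative samples. It was higher in 4 of 4 pairs, and the difference was 1.26 ± 0.64 (adjusted p = 0.314 by edgeR). Without lung negative sample 2 or 4 or lung positive sample 1 or 2 the call in low-granulocyte cells was lost, with adjusted p-values of 0.0526, 0.0511, 0.0673 and 0.136.

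The 10 T cell markers moved with the other genes. They summed to 1605, 652, 2231 and 5600 CPM in biotin positive lung samples 1 to 4 and to between 3860 and 5356 in negative samples, so biotin positive sample 4 stood with the negative samples. Tnfrsf4 in low-granulocyte cells was at 16.6, 7.1, 26.9 and 158 in biotin positive lung against 70.6, 90.2, 128 and 162, lower in 4 of 4 pairs (-1.55 ± 0.77, adjusted p = 0.188 by edgeR). Pdcd1, at 12.8, 1.8, 23.6 and 45.9 in biotin positive lung, was also lower in 4 of 4 pairs (-1.57 ± 0.64, adjusted p = 0.107). Lag3, Tigit and Tox were lower in 4 of 4 pairs and Ctla4 and Foxp3 in 3 of 4. Without other-lineage cells Tnfrsf4 and Lag3 were lower in 4 of 4 pairs, Pdcd1, Tigit, Tox and Foxp3 in 3 of 4 and Ctla4 in 2 of 4. The median of the 8 tested was -1.22 and that of all genes -0.02. Without biotin positive sample 4, 5 genes passed in low-granulocyte cells: Tnfrsf4 (-2.98, adjusted p = 0.00547), Lag3 (-3.48, adjusted p = 0.0256), Pdcd1 (-2.09, adjusted p = 0.0239), Ctla4 (-1.94, adjusted p = 0.0398) and Havcr2 (1.73, adjusted p = 0.00366), where 22% of genes passed. In all gated cells 2 then passed, Tnfrsf4 (-2.96, adjusted p = 0.0298) and Havcr2 (1.88, adjusted p = 0.0271), where 9.2% of genes passed. The part of phagocyte and T cell makeup in these differences was not tested beyond the fit without other lineages.

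Other lymphocyte genes passed in the same cells, where 13.1% of all genes did. Lair1, an inhibitory collagen receptor that myeloid cells also carry, was higher in biotin positive lung (1.99 ± 0.42), as was Cd200r1 (1.65 ± 0.55), while Cd96 was lower (-1.58 ± 0.37), as 3 of 11 inhibitory receptor genes. Of 8 naive and memory genes, 4 were lower, among them Tcf7 (-1.59 ± 0.42) and Slamf6 (-1.45 ± 0.45). Tnfrsf25 was lower (-1.73 ± 0.50), as 1 of 8 costimulatory genes, and Ikzf3 (-1.44 ± 0.48), as 1 of 13 transcription factors tested, shares at or below that of all genes.

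No member passed between biotin sorts in bone, brain or liver. In all gated cells 0 of 9 genes passed by edgeR in each, DESeq2 called 0 and none was at an unadjusted p under 0.05, and the share of all genes that passed was 0% for bone, 0% for brain and 0.424% for liver. Low-granulocyte cells also gave 0 of 8 in each by edgeR, 0 at an unadjusted p under 0.05 and 0 by DESeq2, with 0%, 0% and 2.78% of genes passing. Ctla4 in low-granulocyte bone was at 61.4, 73.9, 19.3 and 6.3 CPM in biotin positive samples, on both sides of the negative range (0.84 ± 0.79). Tnfrsf9 in bone was at 123 in biotin positive sample 1 and at 0 in the other 3, which held 14 to 26 cells each. Tnfrsf4 in brain spread from 13.8 to 158 in biotin positive and from 20.8 to 87.3 in biotin negative samples (0.48 ± 0.77). In liver Havcr2 was at 20.3, 50.1 and 16.8 in 3 biotin positive samples and at 10.2, 14.2, 15.4 and 5.8 in negative ones, which did not overlap, with a difference of 1.08 ± 0.57 (adjusted p = 0.331 by edgeR). Phagocyte UMIs were present in 46.7% of these biotin positive and 13.9% of the negative liver cells, and these cells held 18 of 24 and 24 of 47 Havcr2 UMIs. Without other-lineage cells Havcr2 was higher in 1 of the 2 liver pairs with at least 10 cells. Over all low-granulocyte liver cells Lair1 was higher (1.87 ± 0.47) and Klrc1, an NK receptor, lower (-3.56 ± 0.86), as 2 of 11 inhibitory receptor genes. The difference of the biotin effect between 1 tissue and the mean of the other 3 was tested for each tissue, and 0 of 9 genes passed in any, with 0 at an unadjusted p under 0.05 and 0 by DESeq2, where 0%, 0%, 0% and 0.454% of genes passed for bone, brain, liver and lung. Low-granulocyte cells also gave 0, with 0%, 0%, 0% and 0.757% passing. Without biotin positive lung sample 4, the low-granulocyte cells passed Tnfrsf4 in the lung test (-3.25 ± 0.88, adjusted p = 0.0368 by edgeR), where 3.15% of genes passed.

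In bone of the IIA experiment, Tox was lower in the biotin positive sample of 5 of 5 pairs and passed only in the fit with the replicate number as a block, and Tnfrsf9 and Lag3 did not pass. Biotin positive samples held 8 to 85 gated cells and biotin negative samples 172 to 830, and sample 1 of the positive side, with 8 cells, was left out. Of the 9 genes, Lag3, Tnfrsf9 and Tox passed the filter on low counts. Tnfrsf9 was at 1335, 9.7, 0, 36.6 and 4.1 CPM in biotin positive samples 2 to 6 and at 61.2, 86.3, 8.8, 6.0, 32.3 and 6.8 in the 6 negative samples. Its difference was 3.35 ± 1.26 (adjusted p = 0.242 by edgeR) and -0.98 ± 0.93 (adjusted p = 0.69) without biotin positive sample 2. Of the 339 Tnfrsf9 UMIs in that sample, 337 lay in 5 cells, and of its 37 Havcr2 UMIs 34 lay in 5 cells. Tox was at 55.1, 24.2, 58.7, 107 and 18.3 in biotin positive and at 284, 210, 32.2, 157, 442 and 35.8 in biotin negative samples, which overlapped between groups (-1.78 ± 0.64, adjusted p = 0.223). In low-granulocyte cells the 1 pair with at least 10 cells went the other way, with Tox at 1453 CPM in 12 biotin positive cells and at 943 in the negative sample 5. Low-granulocyte cells were 46 of 253 gated cells on the biotin positive and 691 of 2464 on the negative side, and their part in the Tox difference was not tested. Lag3 was at 0.02 ± 0.88. Tox was not alone in its direction: Pdcd1, Tigit and Foxp3 were also lower in 5 of 5 pairs, and Ctla4, Lag3 and Tnfrsf4 in 4 of 5. Biotin positive samples 2 to 6 held 0 to 3 Pdcd1, 0 to 7 Tigit and 0 to 2 Foxp3 UMIs each, against 7 to 41 Tox UMIs. Of the 3 genes tested (Lag3, Tnfrsf9 and Tox), 0 passed by edgeR and 0 by DESeq2, with 2 at an unadjusted p under 0.05, where 0% of 6320 genes passed. With the replicate number as a block Tox passed (-1.45 ± 0.24, adjusted p = 0.0285 by edgeR), where 0.33% of genes passed. Neutrophil genes took 14.5% to 35.9% of UMIs in gated cells of the negative and 7.17% to 28.5% of the positive samples. In low-granulocyte cells 1 biotin positive sample had at least 10 cells, and its 12 cells do not carry a comparison.

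**Figure D5:**
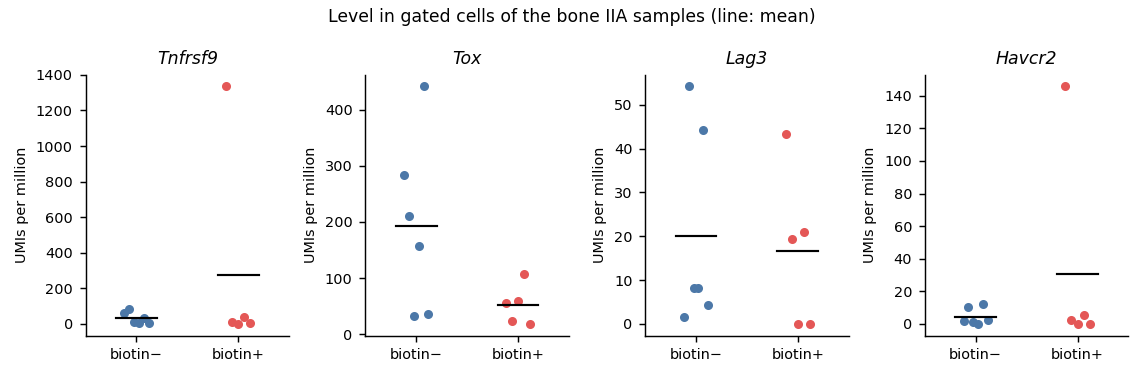
CPM (vertical axis) of Tnfrsf9, Tox, Lag3 and Havcr2 in gated cells of the IIA bone samples, by biotin sort. Each point is a sample with at least 10 gated cells and the line is the mean. Biotin positive sample 2 lies alone at 1335 for Tnfrsf9 and 146 for Havcr2.

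The gates of the IIA samples gave few comparisons that passed. In low-granulocyte cells the CD4, CD8 and NK gates held 72, 172 and 95 cells. Ctla4 was at 201, 41.4 and 40.4 CPM pooled over samples, and Tnfrsf4 at 103, 6.54 and 4.76. In the NK gate, 15 of the 17 Ctla4 UMIs lay in the 5 cells of biotin positive sample 2, and the other samples were at 0 to 27.1 CPM. No Pdcd1 UMI was found in 95 NK gate cells, which allows a share of cells with a UMI of up to 3.16%. Pdcd1 was at 56.7 CPM in the CD8 gate and 175 in the CD4 gate. Against a floor of 3 UMIs over all NK gate cells, Pdcd1 was at least 7.95-fold higher in the CD8 gate. Over all gated cells of 5 samples Pdcd1 was the only one of 4 tested genes past the threshold between the NK and CD8 gates (adjusted p = 0.0351 by edgeR). It passed the filter on low counts through the T cell gates, so its lower level in the NK gate is a description. In that fit 8.18% of 1833 genes passed. The Pdcd1 call was lost with a minimum of 2 UMIs in the gate (adjusted p = 0.414), a hashtag ratio of 2 (adjusted p = 0.0579), and without biotin negative sample 1, 2 or 5. In low-granulocyte cells Pdcd1 also passed (adjusted p = 0.0446 by edgeR), where 12.6% of genes passed and DESeq2 called 0. Between the CD8 and CD4 gates 0 of 4 genes passed by edgeR and 0 by DESeq2, with 3 at an unadjusted p under 0.05, where 1.69% of genes passed. Tox passed in low-granulocyte cells, lower in the CD8 gate (-1.67 ± 0.36, adjusted p = 0.00982 by edgeR), where 3.47% of genes passed, and was not called by DESeq2. Icos was lower in the CD8 gate (-4.39 ± 0.88 in low-granulocyte cells), as 1 of 5 costimulatory genes tested. No IIA sample held 10 CD4 gate cells with a Foxp3 UMI, so the split by Foxp3 could not be fitted.

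Across 23 intracardiac samples with at least 50 low-granulocyte cells, the gene closest to each member in level was described by Pearson's r of log2(CPM + 10) over 7934 genes. The samples share tissue, sort and cell makeup, and r is given with no test. The closest to Ctla4 were Cd40lg (0.867), Slamf1 (0.857) and Hivep2 (0.850). The closest to Tnfrsf4 were Izumo1r, a folate receptor carried by regulatory T cells (0.855), Sdf4 (0.823) and Ctla4 itself (0.801). The closest to Foxp3 were Trp53inp1 (0.731), Izumo1r (0.720) and Ikzf2 (0.711). Pdcd1 lay close to Eif1 (0.893) and Tox (0.860), and Tox to Pdcd1 (0.860), Fyn (0.858) and H2-Q6 (0.857). Tnfrsf9 lay closest to the granzyme genes Gzmc (0.787) and Gzmd (0.746), with Car2 between them (0.752). Lag3 lay closest to Smap1 (0.834), Gpm6b (0.831) and Plaat3 (0.821). Havcr2 lay closest to Lmna (0.920), Il18, a cytokine gene of macrophages (0.903), and Plscr1 (0.902). Tigit had too low a mean for this measure.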

How the data were processed

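Single-cell RNA was measured in 32 intracardiac samples and in 1 pooled IIA matrix of 12 hashtagged samples. The deposited matrices hold UMI counts per gene and cell that the authors made with Cell Ranger, version 6.1.2 for the intracardiac and 7.1.0 for the IIA files per the file headers, and the submitters' processing notes name mm10 and Seurat without versions. Deposited counts were used with no normalization.

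Cells with at least 500 UMIs, 200 genes and at most 15% mitochondrial UMIs were kept (55366 of 57065 intracardiac barcodes). IIA cells needed at least 10 hashtag counts and 3 times the next hashtag, and cells with several hashtags were dropped. No doublet caller was run. Total UMIs per intracardiac sample ranged from 497940 to 44874529. Samples with the same number shared 0 barcodes over 112 pairs, and other pairs shared 341 over 384.

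UMIs were summed per sample and tested with edgeR 4.0.16 (R 4.3.3; quasi-likelihood, TMM) across all genes past its low-count filter, with Benjamini-Hochberg adjustment at 0.05. All 8 intracardiac groups shared 1 fit, and samples under 10 cells were left out. DESeq2 1.42.0 was an alternative, as were other scalings, filters, gates, cell minimums and each sample left out. The scripts were tested on simulated data. For biotin sorts of lung and bone, 58.3% and 66.5% of planted changes were recovered in gated cells and 63.5% and 53.4% in low-granulocyte cells. Such fits can therefore miss changes. Same-numbered samples deviated together (correlation at least 0.134 in 15 intracardiac pairs and 0.158 in 5 IIA pairs), so the numbers were taken to pair samples. The main fits of tissues and biotin sorts leave this pairing out, and the blocked fit is given where it changed a call. Intervals cover counting error only.

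The named genes are the 9 members, up to 3 called genes of each pathway list and the 3 genes closest in level to each member. Some genes that this rule names are not reported here. The members and lists were chosen with earlier results of these data known.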

Additional observations from a re-analysis of the deposited data

Results flagged for a closer look

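In groups of 4 to 6 samples, 18 of 153 combinations of gene and group held a sample set apart from the rest by Dixon's test, or 11.8%. No chance rate is set beside this, since several groups held values of 0 and the low-granulocyte cells are part of the gated cells. In low-granulocyte cells, biotin positive bone sample 1 stood apart for Tnfrsf9 (123 CPM, others 0), Tnfrsf4 (79.7, others 0 to 8.69) and Foxp3 (15.4, others 0). Biotin positive lung sample 4 stood apart for Tnfrsf4 (158, others 7.06 to 26.9) and Lag3 (71.3, others 2.56 to 10.1), and in all gated cells again for Lag3 (35.9, others 2.57 to 7.52). Lag3 was at 60.7 in biotin positive brain sample 4 (others 0 to 6.89), Havcr2 at 9.95 in biotin negative brain sample 4 (others 4.47 to 5.29), and Pdcd1 at 83.7 in IIA biotin negative sample 5 (others 21.6 to 44.5).

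In all gated cells, biotin negative brain sample 3 stood apart for Tox (103, others 13.6 to 27.3), Pdcd1 (35.0, others 1.49 to 7.199) and Tigit (22.1, others 0.558 to 2.40). IIA biotin positive sample 2 stood apart for Tnfrsf9 (1335, others 0 to 36.6), Havcr2 (146, others 0 to 5.22) and Ctla4 (102, others 0 to 7.25). Foxp3 was at 5.22 in IIA biotin positive sample 5 (others 0), Tigit at 4.65 in biotin negative bone sample 3 (others 0.178 to 0.772), and Tnfrsf9 at 17.4 in biotin positive bone sample 1 (others 0).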

How the results depend on the processing

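Of 8389 fold changes of the 9 genes under an alternative, 8303 kept their side of the threshold (359 of these, none called, changed sign), 46 lost a call, 40 gained one and no called value reversed. Counts of called genes that moved by over 1.5 times were, for biotin negative bone against other tissues, 1 by DESeq2, 2 with the replicate block and 1 when the groups were fitted alone. For biotin negative lung against other tissues they were 7 with the replicate block, 0 with at least 2 UMIs in the gate and 0 in low-granulocyte cells, where no filter and a fit alone each gave 1. In gated cells a fit alone gave 4, adding Tnfrsf9 (adjusted p = 0.0324), and without other-lineage cells the count of 3 lost Ctla4 (adjusted p = 0.0501) and gained Lag3 (adjusted p = 0.0404), by edgeR. For lung biotin sorts, low-granulocyte cells gave 1, and 0 without other-lineage cells. The IIA biotin sorts gave 1 with the replicate block. NK against CD8 gates gave 8 without a filter and 5 with at least 20 cells, in gated and low-granulocyte cells. IIA CD8 against CD4 gates gave 2 without a filter, 1 with 2 UMIs, 1 in low-granulocyte cells and there 0 by DESeq2. IIA NK against CD8 gates gave 0 with 2 UMIs or a hashtag ratio of 2, and in low-granulocyte cells 0 by DESeq2 or RLE scaling. The Foxp3 split gave 3 by DESeq2, 3 without a filter, 2 with at least 3 cells, 3 with 2 UMIs and 3 in low-granulocyte cells, there 1 by RLE scaling and 2 by DESeq2. The block changed no other call. The cause was not tested.

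Leaving out each sample gave 0 to 2 genes for lung biotin sorts (0 to 5 in low-granulocyte cells), 0 to 1 for their difference from other tissues in low-granulocyte cells, 0 to 1 for bone and 0 to 4 for lung against other tissues, and 0 to 1 for IIA NK against CD8 gates. Thinned to 1000 in place of 2000 UMIs, the shares of gated cells with a UMI were 1.62% (from 2.54%) for Pdcd1, 4.27% (5.81%) for Ctla4, 1.53% (2.27%) for Lag3, 0.519% (0.98%) for Tigit, 0.529% (1.18%) for Havcr2, 2.58% (3.44%) for Tnfrsf4, 1.31% (1.95%) for Tnfrsf9 and 5.35% (8.32%) for Tox. Not run, for too few cells or samples, were the Foxp3 split in IIA samples, with 20 cells, without other-lineage cells and with samples left out, and several IIA fits of low-granulocyte cells.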

Other observations

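In low-granulocyte cells, Cd244a, which encodes an NK and CD8+ T cell receptor of the SLAM family, was higher in biotin negative liver than in the other biotin negative tissues (log2 difference 1.65, adjusted p = 0.0013 by edgeR), where 0.0591% of genes passed. NK gate cells were 238 of 967 such cells in liver, 359 of 2395 in lung, 108 of 871 in brain and 84 of 812 in bone, and Cd244a was higher in the NK than in the CD8 gate (3.23 ± 0.31). The part of NK cells in the liver difference was not tested.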
